A study of Mus musculus with 2 samples.

Results

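The semaphorins, plexins and neuropilins were described in total RNA of the mouse neural tube. Members were the genes whose symbols name a semaphorin of classes 3 to 7, a plexin of families A to D or a neuropilin, after Ensembl gene identifiers were matched to mouse symbols. The rule used names alone and found 31 of 43346 gene rows, which were 20 semaphorins, 9 plexins and 2 neuropilins. Semaphorins are guidance cues that share a sema domain. Those of class 3 are secreted, those of classes 4, 5 and 6 span the membrane, and the class 7 protein is held by a lipid anchor. Plexins are their main receptors and act inside the cell on small GTPases and the cytoskeleton, while neuropilins bind most class 3 semaphorins at the surface of a plexin-expressing cell and also bind growth factors of the VEGF family. In the developing spinal cord the system is known for steering motor and sensory axons, keeping cell bodies in place and patterning vessels.

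The study holds a single group, the neural tube of B6NCrl embryos at embryonic day 14.5, in 2 libraries made from 10 ng of total RNA each, with spike-in RNA added. No genotype other than the strain and no treatment is given in the labels. Replicate 1 and replicate 2 came from 1 pup each, of different pregnant females, although the sex is labelled as pooled male and female. With 1 group there is no contrast between conditions and no test, so the values below describe these 2 libraries.

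Expected counts on gene rows totalled 32255363 in replicate 1 and 25428747 in replicate 2. Neuron markers (7 of 7) and dividing progenitor markers (8 of 8) were at 1 TPM or more in both libraries, as were the 4 Hox genes checked, while the forebrain genes Emx2, Emx1 and Tbr1 had at most 9 counts in either library. Xist had 25148 counts in replicate 1 and 13 in replicate 2, whereas 3 Y-linked genes (Uty, Eif2s3y and Kdm5d) were at 0 counts in replicate 1 and at 906 to 1189 in replicate 2, which goes against the pooled label. Markers of some tissues around the cord were far apart between the libraries. The summed level of 10 meninges or fibroblast markers was 81.1 TPM in replicate 1 and 1102 TPM in replicate 2, that of 7 dorsal root ganglion markers was 1.65 and 137 TPM, and that of 7 skeletal muscle markers was 42.4 and 21.6 TPM. In bulk tissue, fewer cells of a type and less RNA per cell cannot be told apart.

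Most of the family was expressed. TPM is a relative number of transcripts, scaled by their length and to the same sum in each library, so it allows levels of different genes to be compared. Of the 31 members, 29 had 1 TPM or more in both libraries, against 34.7% of all gene rows and 60.8% of protein-coding rows. The median member had a mean of 14.3 TPM, against 5.41 TPM for the median protein-coding gene. The members sat in the middle of the range: 23 of 31 were above the median protein-coding gene and 0 were above the 90th percentile. A band of 5 genes led the order, Plxna2, Plxnb2, Nrp1, Sema6d and Sema6a, with means from 55.7 to 62.9 TPM, and no neighbours within this band were separated by their libraries. Of the 30 pairs of neighbours in the order of mean TPM, 24 had library values that overlapped, so most single places in the order are not resolved. The drop from Sema6a to Plxna3 and that from Sema6b to Plxnd1 were among the 6 that did not overlap.

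**Figure D1:**
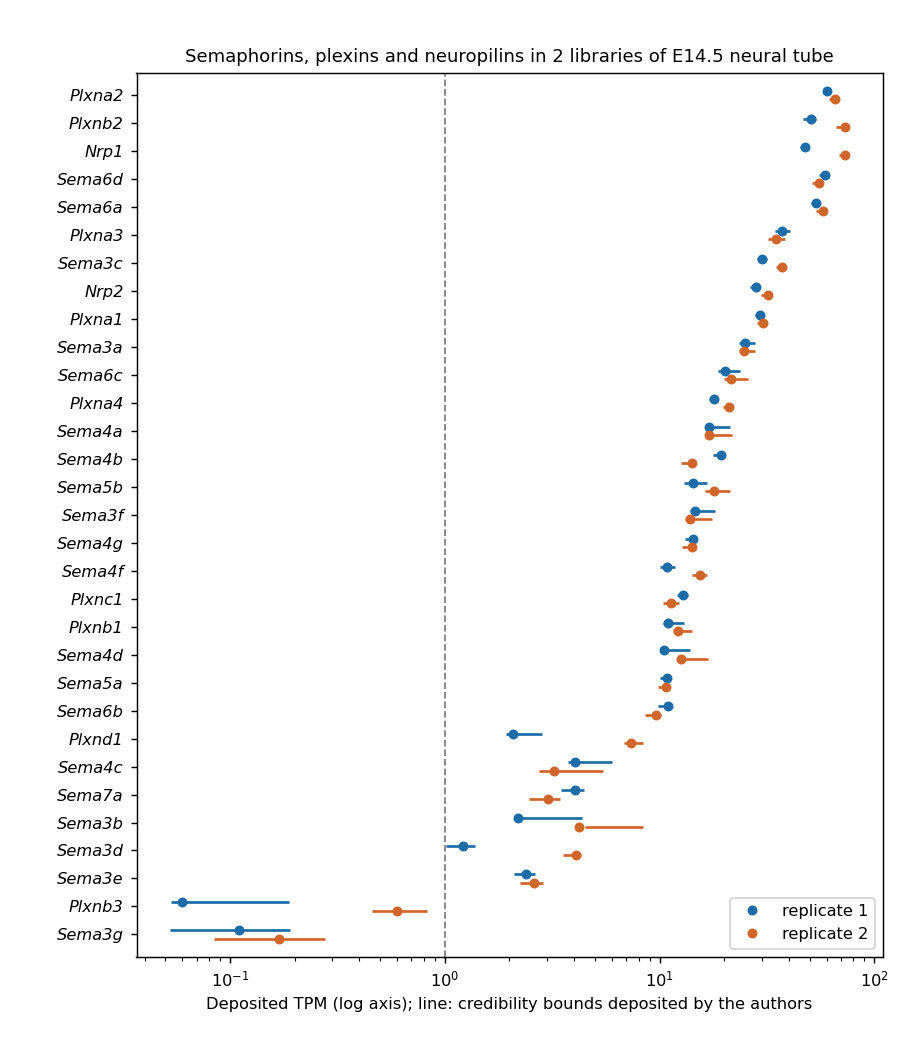
Deposited TPM of the 31 genes (log axis) in replicate 1 (blue) and replicate 2 (orange), ordered by mean, with the credibility bounds that the authors deposited as lines and 1 TPM dashed. The bounds belong to a posterior mean and need not hold the point. A total of 29 genes lie right of 1 TPM in both libraries, and Plxnb3 and Sema3g lie left of it.

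Among the secreted class 3 ligands, Sema3c and Sema3a were highest. Sema3c (ENSMUSG00000028780.9, chr5:17574281-17730268), which acts through neuropilins and is known for guiding neural crest cells, had 29.9 TPM in replicate 1 and 37.3 TPM in replicate 2. Sema3a (ENSMUSG00000028883.13, chr5:13125414-13602565), the classical repellent of sensory and motor axons through Nrp1, had 25.1 and 24.6 TPM. The libraries of Sema3a differed by less than those of Sema3c, and the ranges of these genes did not overlap. By protein-coding transcripts alone Sema3c had 20.95 and 23.98 TPM and lay below Sema3a. Sema3f, a repellent that acts through Nrp2, followed at 14.7 and 13.9 TPM. The other 4 members of the class were under 5 TPM in both libraries. Sema3e, which binds Plxnd1 without a neuropilin, had 2.40 and 2.61 TPM. Sema3b, a ligand of neuropilins, had 2.19 and 4.21 TPM, and Sema3d, a guidance cue of axons and vessels, had 1.22 and 4.08 TPM. Sema3b and Sema3d were thus both higher in replicate 2, and their library ranges overlapped each other. Sema3g, which is known from vessels and binds Nrp2, was under 1 TPM, at 0.11 and 0.17 TPM from 10 and 11 counts.

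Genes of class 3 lie close together in 2 places of the genome. Sema3d, Sema3a, Sema3e and Sema3c lie in this order on the plus strand of chromosome 5, with gaps of 536, 423 and 3318 kb. Their levels did not follow that order: the means were 2.65, 24.9, 2.51 and 33.6 TPM. Sema3b and Sema3f lie 72.3 kb apart on the minus strand of chromosome 9, with means of 3.20 and 14.3 TPM. In both places a gene above 10 TPM thus neighboured one under 5 TPM.

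The membrane-bound class 4 ligands formed a narrow group. Sema4a, known from immune cells and the retina, had 17.1 TPM in replicate 1 and 17.0 TPM in replicate 2. Sema4b had 19.3 and 14.1 TPM, and Sema4g had 14.3 and 14.2 TPM. Sema4f had 10.9 and 15.5 TPM, and Sema4d, the ligand of Plxnb1, had 10.5 and 12.6 TPM. These 5 genes overlapped in their library values from one to the next. Sema4c (ENSMUSG00000026121.9, chr1:36548639-36558349), a ligand of Plxnb2, stood below them at 4.05 and 3.21 TPM.

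Class 5 proteins carry thrombospondin repeats beside the sema domain and are known to repel retinal neurites through Plxna1 and Plxna3. Sema5b had 14.4 and 17.9 TPM, and Sema5a had 10.8 and 10.7 TPM, without overlap between these genes. By protein-coding transcripts alone Sema5b had 8.98 and 11.98 TPM, and the genes did overlap. Sema7a, the lipid-anchored ligand of Plxnc1, had 4.06 TPM in replicate 1 and 3.03 TPM in replicate 2. It was thus among the 8 lowest members in the order.

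Class 6, whose members act as ligands of A-type plexins and can also signal backwards as receptors, held the highest ligands. Sema6d (ENSMUSG00000027200.13, chr2:124089969-124667770), a ligand of Plxna1, had 59.2 TPM in replicate 1 and 55.2 TPM in replicate 2. Sema6a (ENSMUSG00000019647.12), a ligand of Plxna2 and Plxna4 known from the boundary cap cells that keep motor neuron bodies in the cord, had 53.8 and 57.6 TPM. The ranges of these genes overlapped. By protein-coding transcripts alone they did not, with 43.2 and 45.4 TPM for Sema6d and 30.5 and 31.6 TPM for Sema6a. Sema6c had 20.3 and 21.6 TPM, and Sema6b, a ligand of Plxna4, had 10.9 and 9.66 TPM. Summed over genes, class 6 reached 144.14 TPM in replicate 1 and 144.06 TPM in replicate 2, which was 43.4% ± 1.31 (SD, n = 2) of all semaphorin TPM. Class 3 gave 24.4% ± 1.66 of it from 7 genes and class 4 gave 23.0% ± 0.579 from 6 genes.

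Transcripts of Sema6d differ by extra coding segments, and the libraries held several forms at once. Its segments are shown because their presence or absence is what sets the forms apart. They were read from the GENCODE release 21 transcripts for GRCm38 at chr2:124660244-124660344, chr2:124660705-124660761 and chr2:124662204-124662371, plus strand. In the first exon the capitals mark 39 bases that come with an earlier acceptor. The second is a cassette exon of 57 bases, all in capitals. In the third, a cassette exon of 168 bases, the capitals mark the last 12 bases, which transcript Sema6d-207 leaves out. Each of these segments is a multiple of 3 bases long.
Sema6d exon with the earlier acceptor: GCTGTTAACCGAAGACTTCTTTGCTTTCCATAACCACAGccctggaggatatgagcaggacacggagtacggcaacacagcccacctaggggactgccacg
Sema6d cassette exon: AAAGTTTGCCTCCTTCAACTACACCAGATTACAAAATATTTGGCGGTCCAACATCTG
Sema6d second cassette exon: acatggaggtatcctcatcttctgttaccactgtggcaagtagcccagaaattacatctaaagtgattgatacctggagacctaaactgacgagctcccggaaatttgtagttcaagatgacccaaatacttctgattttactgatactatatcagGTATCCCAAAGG

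The form with none of these segments was the most abundant. Sema6d-208, which lacks all of them, had 24.7 TPM in replicate 1 and 20.0 TPM in replicate 2. Forms without any segment made up 57.2% of the gene's protein-coding TPM in replicate 1 and 44.1% in replicate 2. The cassette exon of 57 bases was carried by 37.2% and 46.6%, the exon of 168 bases by 27.0% and 33.4%, and the earlier acceptor by 15.8% and 22.6%. Each of these 3 shares was higher in replicate 2, but they are not separate observations. Sema6d-206 carries both cassette exons, Sema6d-204 carries the exon of 57 bases and the earlier acceptor, and all shares are parts of the same total. The authors' credibility bounds of Sema6d-208 were 21.8 to 25.8 TPM in replicate 1 and 16.3 to 21.3 TPM in replicate 2, without overlap. The bounds of the next forms, Sema6d-206 (8.51 and 10.8 TPM) and Sema6d-204 (6.55 and 9.51 TPM), did overlap between the libraries.

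Of the receptors, the A-type plexins, which pair with neuropilins and also bind class 6 ligands directly, gave most of the plexin signal. Plxna2 (ENSMUSG00000026640.8, chr1:194618218-194816869), a receptor of Sema6a, had 60.2 TPM in replicate 1 and 65.6 TPM in replicate 2, the highest mean of the family at 62.9 ± 3.87 TPM (SD, n = 2). In replicate 2 taken alone, Plxnb2 (73.3 TPM) and Nrp1 (73.1 TPM) were higher. By protein-coding transcripts alone the mean of Plxna2 was 55.3 TPM, below that of Nrp1 at 60.2 TPM. Plxna3, a receptor for Sema3f with Nrp2, had 37.4 and 34.8 TPM. Plxna1 had 29.5 and 30.5 TPM. Plxna4, a receptor for Sema3a with Nrp1 and for class 6 ligands, had 17.96 and 21.17 TPM. The 4 genes did not overlap in their libraries, in the order Plxna2, Plxna3, Plxna1 and Plxna4. By protein-coding transcripts alone Plxna3 had 17.2 and 18.5 TPM, which is below Plxna1 and overlaps Plxna4. A-type plexins summed to 145 TPM in replicate 1 and 152 TPM in replicate 2, or 62.3% ± 4.40 (SD, n = 2) of plexin TPM. Gm37783, which overlaps Plxna2 on the same strand, had 12.9 and 13.1 TPM, and antisense Plxna4os2 had 1.62 and 2.61 TPM. Whether the counting used strand is not given in the sources used here, so reads of Plxna4 and its antisense partner may not be separable.

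B-type plexins are receptors of class 4 semaphorins. Plxnb2 (ENSMUSG00000036606.12, chr15:89155549-89180788), known for its part in neural tube closure and progenitor growth, had 50.6 TPM in replicate 1 and 73.3 TPM in replicate 2. Plxnb1 had 11.0 and 12.2 TPM. Plxnb3, whose gene lies on the X chromosome 557 kb from Plxna3, was under 1 TPM in both libraries, at 0.06 TPM from 7 counts and 0.60 TPM from 45 counts. Its protein-coding transcript had 0.06 TPM in each library, and the rest in replicate 2 was given to the retained-intron transcript Plxnb3-202. Plxnc1, the receptor of Sema7a, had 12.8 and 11.3 TPM. Plxnd1 (ENSMUSG00000030123.11, chr6:115954811-115995005), the receptor of Sema3e in vessels and neurons, had 2.09 and 7.36 TPM, so its libraries were far apart.

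Much of the Plxnb2 level rested on a short transcript model that is not annotated as protein-coding. Plxnb2-205, a processed transcript of 841 bases at the 3′ end of the gene, had 25.0 TPM in replicate 1 and 35.9 TPM in replicate 2, or 49.4% and 49.0% of the gene's TPM. It held 376 of the gene's 3103 expected counts in replicate 1 and 399 of 3501 in replicate 2. In release 21 its model spans chr15:89155549-89156572, and 21.2% of its bases lie in coding exons of the gene. Protein-coding transcripts of Plxnb2 alone reached 21.03 and 32.55 TPM, which placed the gene 7th instead of 2nd by the mean of the libraries, and 4th in replicate 2 taken alone. The same split was wide in other members: protein-coding transcripts made up 46.0% and 53.2% of Plxna3 TPM, and 56.7% and 54.9% of Sema6a TPM. Over the 29 members at 1 TPM the median protein-coding share was 88.1%, against 97.9% over protein-coding genes at that level.

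**Figure D2:**
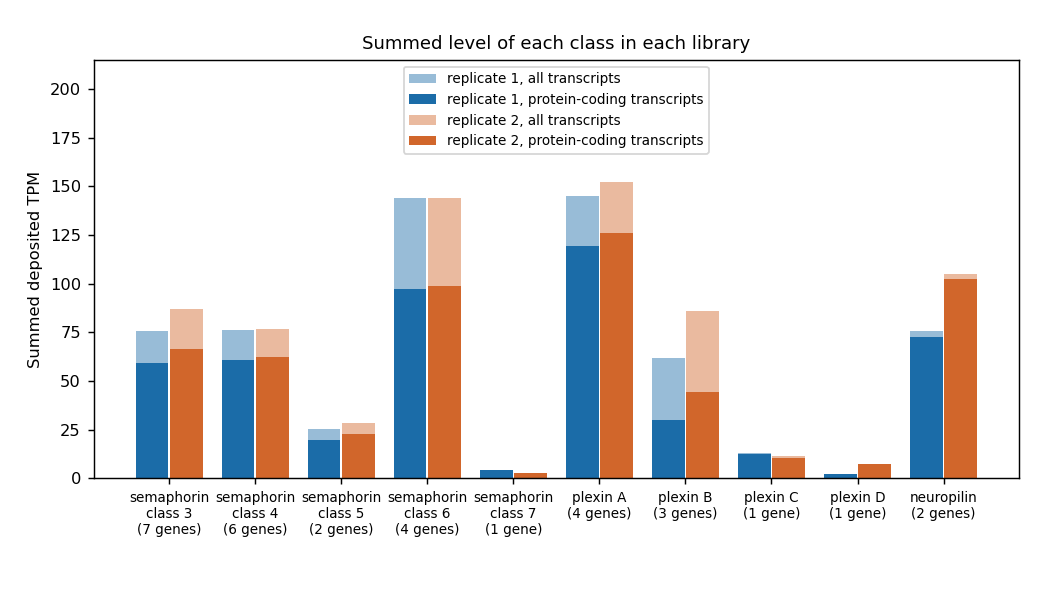
Summed deposited TPM of each class in replicate 1 (blue) and replicate 2 (orange). Solid bars count protein-coding transcripts, and the paler tops add all other transcripts, so the full height is the class total. Class 6 and plexin A are the tallest in replicate 1, and the paler top is largest in proportion for plexin B.

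Both neuropilins were well expressed. Nrp1 (ENSMUSG00000025810.8, chr8:128358604-128503363), the co-receptor of Sema3a and of VEGF on neurons and vessels, had 47.4 TPM in replicate 1 and 73.1 TPM in replicate 2. Nrp2 (ENSMUSG00000025969.11, chr1:62703285-62818695), the co-receptor of Sema3f, had 28.1 and 32.1 TPM. Nrp1 was above Nrp2 in each library, by 1.69-fold and 2.28-fold in TPM. Together the neuropilins had 75.5 and 105 TPM. In summed TPM, receptors and ligands were nearly balanced. Plexins and neuropilins held 47.7% of the summed TPM of all members in replicate 1 and 51.6% in replicate 2. These are 11 receptor genes against 20 semaphorins, with a median of 30.0 TPM per receptor gene and 13.7 TPM per semaphorin. By expected counts, which are not divided by length, the receptors' share was 60.8%.

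Nrp2 is known to be made with different membrane-spanning and cytoplasmic ends, and the transcript tables separate them. The segments that set the forms apart are shown from the release 21 transcripts for GRCm38, plus strand. The exon at chr1:62786281-62786316 keeps 15 more bases, in capitals, when a later donor is used. The coding sequence then ends in 1 of 2 alternative exons, whose first 60 bases lie at chr1:62795709-62795768 (nearer) and chr1:62815333-62815392 (farther).
Nrp2 exon with the longer donor: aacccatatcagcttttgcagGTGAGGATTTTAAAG
Nrp2 nearer last coding exon, first bases: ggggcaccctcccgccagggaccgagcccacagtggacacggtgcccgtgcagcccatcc
Nrp2 farther last coding exon, first bases: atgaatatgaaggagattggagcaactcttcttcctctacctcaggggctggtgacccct

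Both ends were present at similar levels. Transcripts with the nearer end had 14.1 TPM in replicate 1 and 14.7 TPM in replicate 2, and those with the farther end had 11.0 and 14.8 TPM. The nearer end thus held 53.0% ± 4.55 (SD, n = 2) of the protein-coding TPM. The insert of 15 bases was kept in 53.6% of it in replicate 1 and 37.7% in replicate 2. This share turned on Nrp2-203 and Nrp2-204, which differ by the insert alone: Nrp2-203 had 3.98 and 0.00 TPM, and Nrp2-204 had 6.15 and 12.4 TPM. The authors' bounds of Nrp2-203 were 1.16 to 7.65 TPM in replicate 1 and 0.05 to 8.26 TPM in replicate 2, and those of Nrp2-204 were 1.87 to 8.57 and 3.11 to 11.9 TPM. The bounds of each transcript overlapped between the libraries, and in replicate 2 both deposited TPM values lay outside their own bounds, so the insert's share is poorly fixed.

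The libraries were close for most members, and 4 differed by 1.5-fold or more. Ratios between libraries were taken from expected counts after TMM scaling, which evens out library size and composition, at a mean count of at least 100. Of the 29 members at that count, 3 were at least 1.5-fold higher in replicate 2 (10.3%), where 6.87% of all genes were, and 1 was at least 1.5-fold higher in replicate 1 (3.45%), where 3.23% were. Each share lay near that of all genes. On the log2 scale, the ratio of replicate 2 over replicate 1 had a median of 0.02 among members and -0.005 among all genes, and the median absolute log2 ratio was 0.18 over the members and 0.17 over all genes. Scaling by spike-in RNA would add 0.55 to every log2 ratio, so all ratios are relative to the bulk of genes.

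Plxnd1 had 289 counts in replicate 1 and 750 in replicate 2, which was 3.29-fold higher in replicate 2 (95% counting interval 2.87 to 3.78). Sema3d had 159 and 392 counts and was 3.12-fold higher (2.59 to 3.78). Sema3b had 82 and 156 counts and was 2.41-fold higher (1.83 to 3.19), and its deposited TPM of 4.21 in replicate 2 lay under the authors' own bounds of 4.51 to 8.36 TPM. Sema3e, the ligand of Plxnd1, did not move with its receptor: it had 324 and 260 counts and a ratio of 1.02 (0.86 to 1.20). Sema4c had 246 and 113 counts and was 1.72-fold higher in replicate 1 (1.37 to 2.17), but in deposited TPM its ratio was only 0.79, and its highest transcript differed between the libraries. The expected counts of Sema4c, Plxna1 and Plxnb1 were not whole numbers, so part of their reads was shared with other genes and their counts are less certain. These intervals cover counting error alone and treat each read as independent. Reads of amplified RNA are not independent molecules, so the intervals may be too narrow. They say nothing of differences between embryos.

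Some genes lay just inside the threshold. Nrp1 had a ratio of 1.44 (1.39 to 1.495) by counts and 1.54 by deposited TPM, and Plxnb2 had 1.43 (1.36 to 1.5). Sema4b was 1.44-fold higher in replicate 1 (1.31 to 1.58) and Sema7a 1.43-fold (1.17 to 1.77). Plxnb3, at a mean count under 100, had a ratio of 8.14 with an interval from 3.64 to 21.4. In 19 of 29 members the higher library exceeded the lower by less than 25%, Plxna2 (ratio 0.97), Sema6d (0.95), Sema6a (0.96) and Sema3a (0.99) among them.

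**Figure D3:**
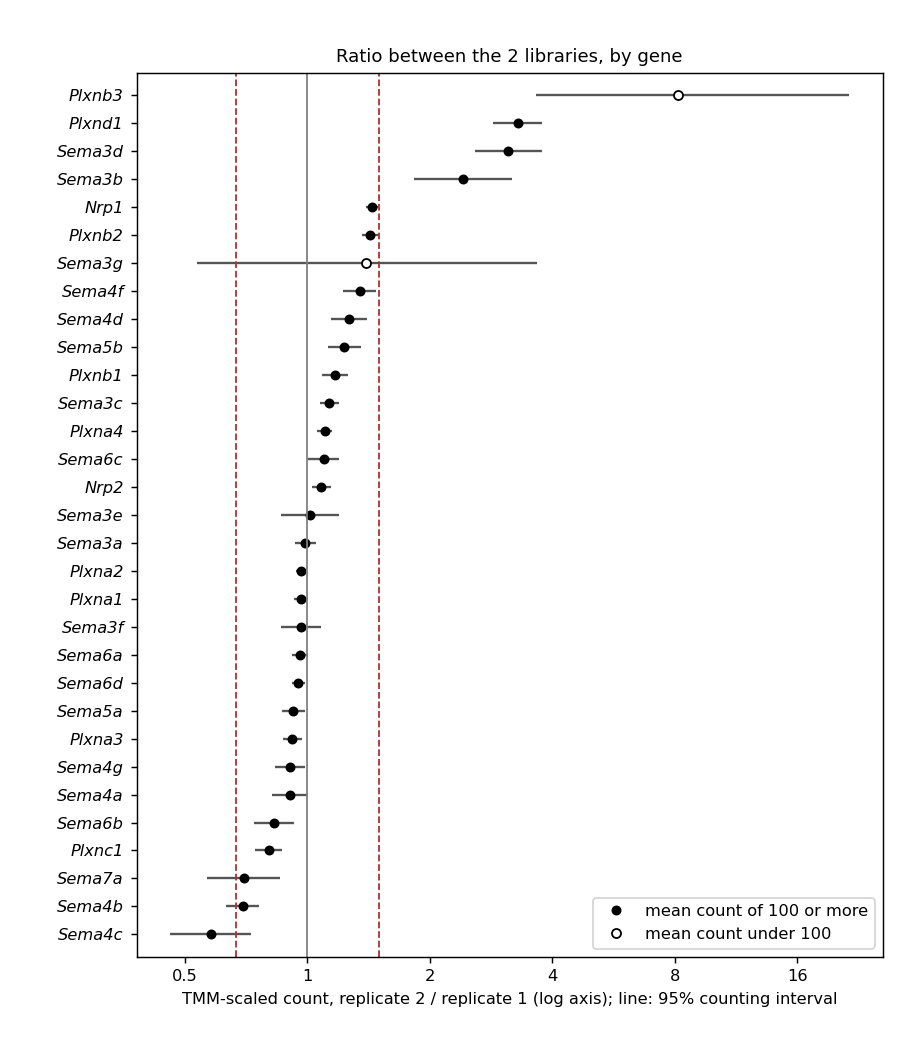
Ratio of TMM-scaled counts, replicate 2 over replicate 1, for each of the 31 genes (log axis), with 95% counting intervals as lines and dashed lines at a 1.5-fold difference in either direction. Open points have a mean count under 100. Plxnd1, Sema3d and Sema3b lie right of the band, as does the open point of Plxnb3, and Sema4c lies left of it.

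Cell type markers moved between the libraries as well. All 9 endothelial markers were at least 1.5-fold higher in replicate 2, with summed levels of 95.6 and 220 TPM. Among them were Kdr, a VEGF receptor that pairs with neuropilins (9.39 and 23.2 TPM), and Cdh5 (3.36 and 13.5 TPM). Of the meninges or fibroblast markers, all 8 that reached a mean count of 100 were higher in replicate 2, as were all 4 such dorsal root ganglion markers and all 3 such Schwann cell markers. Cdh19, of the Schwann cell list, had 0 counts in replicate 1 and 112 in replicate 2. Mrgprd, of the ganglion list, had 0 and 4 counts and was near the floor in both libraries. The Schwann cell list summed to 9.41 and 33.1 TPM. Microglia markers were higher in 5 of 8 (98.5 and 171 TPM) and pericyte markers in 2 of 7 (42.5 and 63.0 TPM). Neuron markers were higher in 0 of 7 (4509 and 4419 TPM), motor neuron markers in 2 of 7, oligodendrocyte precursor markers in 2 of 6 and progenitor markers in 1 of 8. The motor neuron markers were Isl1 (2.99-fold) and Isl2 (6.88-fold), while ratios of the others ran from 0.80 (Lhx3) to 1.15 (Lhx4). The precursor markers were Pdgfra (1.81-fold) and Sox10 (1.82-fold), with Olig1 (0.76), Olig2 (0.75), Gpr17 (0.95) and Cspg4 (1.05) not past 1.5-fold. The progenitor marker was Nes (1.56-fold). Both skeletal muscle markers at a mean count of 100 were higher in replicate 1. Over all genes at that count, 6.87% were at least 1.5-fold higher in replicate 2 and 3.23% in replicate 1. Kdr also stands among the co-receptors below, and Sox10 is in the precursor and the Schwann cell lists. The part of these markers in the ratios of Plxnd1, Sema3d, Sema3b and Nrp1 was not tested.

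The upstream sequences of Plxnd1 and Sema3d are shown because these genes were higher in replicate 2 by 3.29 and 3.12-fold. Sema3b, at 2.41-fold, had no promoter entry. Nrp1, at 1.44-fold, did not reach 1.5-fold and is shown beside them, while Plxnb2, at 1.43-fold, is not. Each sequence is the 250 bases before the RefSeq start in GRCm38.p6, in the direction of the gene, with CG dinucleotides in capitals. They lie at chr6:115995006-115995255 (minus strand), chr5:12382916-12383165 (plus strand) and chr8:128358823-128359072 (plus strand). The GENCODE start of the measured transcript lies directly after the Plxnd1 window, 219 bases further for Sema3d and 211 bases further for Nrp1. The annotated span of the Nrp1 gene begins at chr8:128358604, before its window. The Nrp1 window thus lies inside the annotated gene and is upstream of the measured transcript only.
Plxnd1: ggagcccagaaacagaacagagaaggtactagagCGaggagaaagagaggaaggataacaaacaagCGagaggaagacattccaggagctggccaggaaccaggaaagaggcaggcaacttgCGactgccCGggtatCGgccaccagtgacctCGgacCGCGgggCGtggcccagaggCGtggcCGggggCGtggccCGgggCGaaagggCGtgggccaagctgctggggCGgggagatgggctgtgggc
Sema3d: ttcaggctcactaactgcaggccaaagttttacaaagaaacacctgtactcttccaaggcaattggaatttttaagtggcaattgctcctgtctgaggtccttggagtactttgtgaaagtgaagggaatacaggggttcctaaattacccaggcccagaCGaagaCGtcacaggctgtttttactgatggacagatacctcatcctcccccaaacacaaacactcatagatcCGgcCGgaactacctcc
Nrp1: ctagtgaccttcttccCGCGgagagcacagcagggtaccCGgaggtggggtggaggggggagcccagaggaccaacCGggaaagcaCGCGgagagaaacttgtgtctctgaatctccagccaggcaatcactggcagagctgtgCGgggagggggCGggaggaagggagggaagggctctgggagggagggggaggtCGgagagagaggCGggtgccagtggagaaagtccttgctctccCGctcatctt

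These windows differed in base content. Plxnd1 held 16 CG dinucleotides, Nrp1 held 11 and Sema3d held 4, and the GC content was 64.8%, 64.4% and 46.8%. Motifs were searched on both strands in the same 250 bases of all 32851 RefSeq promoter entries, of which 37 belonged to 26 of the members, several of them to the same gene. Member entries held a median of 13 CG dinucleotides, against 6 over all entries. The GC box GGGCGG, which itself holds a CG, was in 27 of 37 member entries (73.0%) and in 32.7% of all entries. It occurred once in the Plxnd1 and Nrp1 windows and was not found in that of Sema3d. The E-box CANNTG was in 51.4% of member entries and 66.2% of all, with 3 matches for Sema3d. TATAAA was in 0 of 37 member entries and in 12.4% of all. A match is a description of the letters and not evidence that a factor binds. No entry was matched for Plxna1, Plxna4, Sema3b, Sema3f and Sema6a.

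Transcript use was mostly shared between the libraries. Of the 29 members at 1 TPM, 25 had the same highest transcript in both libraries. Among the 24 with several annotated transcripts it was 20 (83.3%), against 89.0% of protein-coding genes with several transcripts. The members that differed were Sema4g, Nrp2, Sema4c and Sema4a. In Sema4g, transcript Sema4g-201 had 8.03 TPM in replicate 1 and 2.19 TPM in replicate 2, with bounds of 5.52 to 9.90 and 1.04 to 3.81 TPM that did not overlap. Sema4g-203 went the other way, at 3.24 and 8.25 TPM, with bounds of 1.09 to 5.46 and 5.24 to 9.84 TPM that overlapped, while the gene as a whole had 14.3 and 14.2 TPM. In Sema4a the highest was Sema4a-213 in replicate 1 (6.14 against 0.20 TPM) and Sema4a-214 in replicate 2 (3.40 against 5.83 TPM), and the bounds of each overlapped. Among these 24 members, Plxnb2 alone (4.17%) had a highest transcript by TPM that was not protein-coding, in both libraries. Of protein-coding genes with several transcripts, 10.7% had one in replicate 1. By expected counts the highest Plxnb2 transcript was the protein-coding Plxnb2-202, with 2575 counts in replicate 1 and 2675 in replicate 2.

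**Figure D4:**
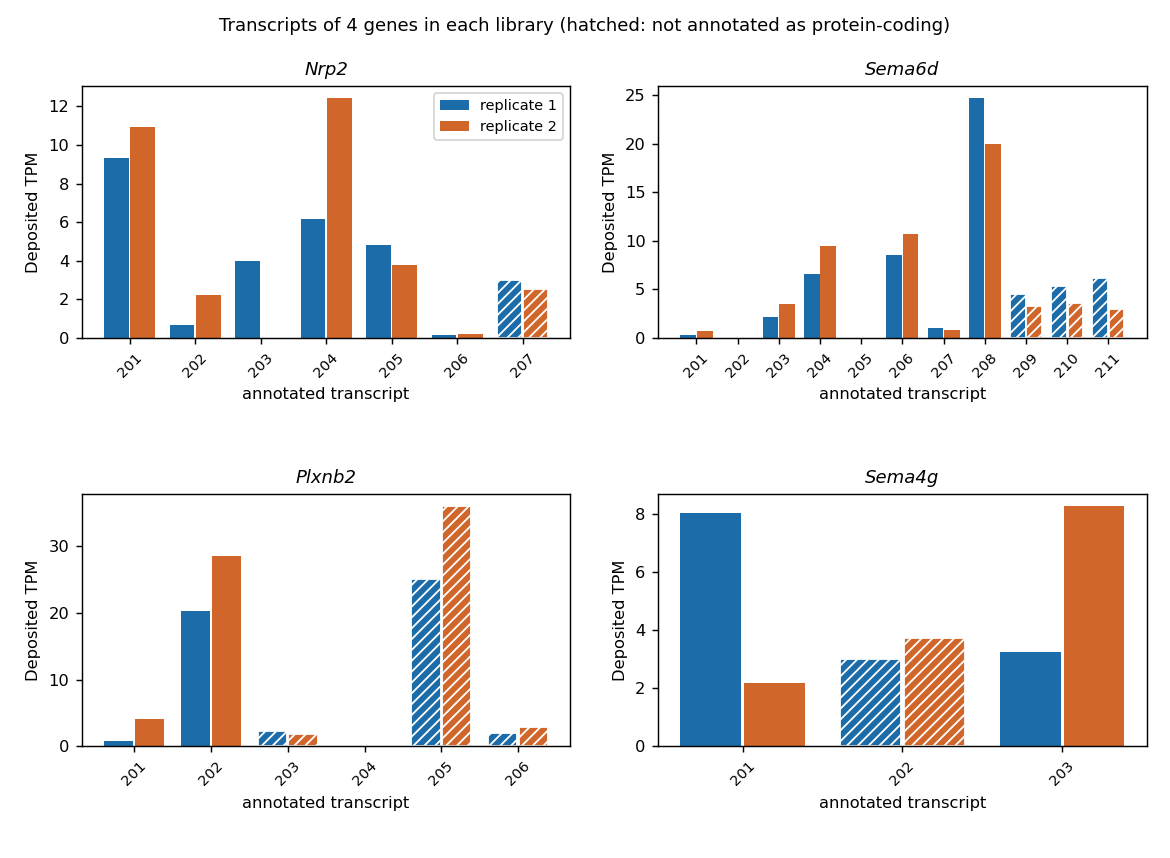
Deposited TPM of each annotated transcript of Nrp2, Sema6d, Plxnb2 and Sema4g in replicate 1 (blue) and replicate 2 (orange), with hatched bars for transcripts not annotated as protein-coding. Numbers on the horizontal axes are the ends of the transcript names. Sema4g-201 and Sema4g-203 change places between the libraries, and the tallest Plxnb2 bars are hatched.

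Receptors stood above their known ligands in some pairs and below them in others. Plxnb2 exceeded its ligand Sema4c in TPM by 12.5-fold in replicate 1 and 22.8-fold in replicate 2, the widest of the 13 pairs compared, and by 6.10-fold and 16.1-fold when protein-coding transcripts alone are counted. Plxnb1 and Sema4d were nearly equal, at 1.04 and 0.97. Plxna2 was at 1.12 and 1.14 of Sema6a, and at 1.80 and 1.76 by protein-coding transcripts. Plxna1 was at 0.50 and 0.55 of Sema6d, and Plxna4 at 0.33 and 0.37 of Sema6a, which became 0.59 and 0.67 by protein-coding transcripts. Nrp1 exceeded Sema3a by 1.89-fold and 2.97-fold. Plxnd1 was at 0.87 of Sema3e in replicate 1 and at 2.82 times it in replicate 2. In replicate 1 the authors' bounds overlapped, at 1.92 to 2.83 TPM for Plxnd1 and 2.11 to 2.63 TPM for Sema3e. In replicate 2 they did not, at 6.81 to 8.34 TPM and 2.24 to 2.86 TPM, so the order is resolved in that library only. Bulk RNA does not say whether ligand and receptor were in the same cells.

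Other receptors and co-receptors were largely present. Of 13 listed genes, 12 had 1 TPM or more in both libraries, with the adhesion molecule L1cam, a partner of Nrp1, highest at 86.7 and 113 TPM. Timd2, a receptor of Sema4a on immune cells, had 0 counts, which allows up to 3 counts at this depth. Of the 12 at a mean count of 100, 5 were at least 1.5-fold higher in replicate 2, where 6.87% of all genes were, and 0 in replicate 1, where 3.23% were. They were Ptk7 (2.94-fold), Cntn2 (2.49-fold), Kdr (2.33-fold), Itga1 (1.99-fold) and Itgb1, a receptor subunit for Sema7a (1.77-fold). Among the cytoplasmic effectors, 24 of 25 had 1 TPM or more in both, and 1 of 24 was higher in replicate 2 and 2 in replicate 1, near those shares of all genes. The actin-severing protein Cfl1 had 2401 and 2289 TPM. The collapsin response mediators Dpysl2 (821 and 977 TPM), Dpysl3 (787 and 874 TPM) and Crmp1 (705 and 753 TPM), which are known to act in Sema3a signalling, were the next highest. The oxidoreductase Mical1 was 1.56-fold higher in replicate 2, and the GTPase Rnd1 was 1.72-fold and Arhgef12 1.56-fold higher in replicate 1.

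Of the growth factors that bind neuropilins, 4 of 5 with a row had 1 TPM or more in both libraries. Vegfb was highest at 48.2 and 42.5 TPM, and Vegfa had 3.12 and 3.05 TPM. All 6 processing proteases had 1 TPM or more, led by Adam10 at 38.5 and 57.0 TPM, while Furin, which cleaves class 3 semaphorins, had 4.25 and 4.33 TPM. None of the 10 genes of these lists at a mean count of 100 was 1.5-fold different, where 6.87% of all genes were higher in replicate 2 and 3.23% in replicate 1.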

How the data were processed

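Total RNA of 2 neural tube libraries was aligned to mm10 with GENCODE mouse release 4, per the file headers. No source used here names the aligner or the quantifier or says whether strand was used. The deposited expected counts are the authors' estimates of reads for each gene and transcript, without normalisation. The deposited TPM and FPKM are scaled by length and depth, spike-ins included. The deposited percent columns give each transcript's share of its gene. The deposited score columns are credibility bounds. Symbols, transcript types and 1-based coordinates came from GENCODE release 21 (GRCm38), in which 169 of 185 member transcripts kept their deposited length.

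Ratios used expected counts with edgeR 4.0.16 TMM library sizes and a prior count of 0.5. They were tested on simulated data. Single genes have exact Clopper-Pearson intervals (95%). Calls needed a 1.5-fold difference at a mean count of at least 100, and medians a mean count of at least 10. Alternatives covered DESeq2 1.42.0 size factors, spike-in scaling, thresholds, FPKM, posterior mean TPM and each library alone. Every member was named. Values were printed in full for the 12 highest by mean TPM, those under 1 TPM, those 1.5-fold different, and the highest and lowest of each class. The rule for members used names alone. The members printed in full, the lists and the genes named from them were chosen with earlier results of these data known. Python 3.11.15 and R 4.3.3 were used.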

Additional observations from a re-analysis of the deposited data

How the results depend on the processing

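The count of 29 members at 1 TPM stayed between 23 (at 5 TPM) and 29 under every alternative run, protein-coding transcripts alone included, a setting chosen after seeing the data. The count higher in replicate 2 became 7 at a difference of 25% and 13 with spike-in scaling, and was 3 or 4 otherwise. The count higher in replicate 1, Sema4c alone, became 3 at a difference of 25% and 0 at 2-fold, with spike-in scaling or by deposited TPM. The median log2 ratio of members became 0.57 with spike-in scaling, by construction, and turned from 0.02 to -0.02 at a mean count of at least 100, so it has no direction. The receptors' share of summed TPM was 47.7% to 51.6% with either library left out, and 60.8% by expected counts, which are not divided by length. The share of class 3 was 23.3% to 25.6% with either library left out. The highest transcript was shared in 26 of 29 members by expected counts and in 20 of the 23 members at 5 TPM. No gene past 1.5-fold turned its direction. Spike-in scaling shifts every log2 ratio up alike, so it turned the sign of each negative member ratio except that of Sema4c. Examples are Sema4b (-0.53 to 0.02), Sema7a (-0.52 to 0.03), Plxnc1 (-0.31 to 0.24) and Plxna2 (-0.05 to 0.50). Orders by protein-coding transcripts alone, chosen after seeing the data, stand beside the levels. No paired analysis was possible because there is 1 group. Depth limits Sema3g and Plxnb3, and 2 libraries limit every statement on replicate spread.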
